A study of Mus musculus with 26 samples.

Results

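Resident alveolar macrophages of mouse lung were compared between 7 days and 3 days after lipopolysaccharide (LPS) was given into the trachea. The comparison rests on 7 of the 26 libraries of the series: the 3 whose labels read resident AM at day 3 and the 4 that read resident AM at day 7, all of them LPS treated. The other libraries printed beside them are resident AM without LPS (day 0, n = 3) and at day 1 (n = 4). BM-derived macrophages, the recruited cells of the study, are printed at day 3 (n = 4) and day 7 (n = 3). Those at day 1 enter only through the fit, whose estimate of the spread draws on all 26 libraries. The labels give lung as the tissue. The descriptions of the day 0 libraries carry the word Young, and those of the LPS libraries carry no word on age. Strain, sex, ages and sorting gates are not given in the sources used here, nor is it said whether the replicates are separate mice. The p-values therefore measure the spread between libraries within the groups of the whole series, which may be technical in part. No genetic change or second agent is named in the labels of any group.

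Alveolar macrophages are the phagocytes of the air space. They clear surfactant lipid and inhaled particles, depend on the nuclear receptor PPARγ, and export cholesterol through ABC transporters. LPS, a component of the outer membrane of Gram-negative bacteria, is sensed by Toll-like receptor 4, which drives both the NF-kB pathway and, through IRF3 and type I interferon, a set of antiviral genes whose promoters carry an interferon-stimulated response element. IRF7 is itself induced by interferon and amplifies this response.

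The libraries held 11244884 to 14501585 counts at day 3 and 9950513 to 27513205 at day 7, and 14826 to 15148 against 16379 to 17098 genes were detected. The groups also differed in sex as read from RNA. Summed over 4 Y-linked genes the level was 193.9 to 227.2 CPM (counts scaled to a common library size, with TMM factors) in the day 3 libraries and 0.152 to 4.09 CPM in the day 7 libraries, and Xist stood at 0.45 to 20.8 against 279.7 to 327.6 CPM. Day and sex cannot be told apart within these 7 libraries. The day 0 libraries were Y-positive (145.7 to 226.5 CPM), as the day 3 libraries were, so day 3 against day 0 is printed beside the main comparison where it helps, although day 0 carries another library prefix and the word Young, and 1 of its libraries also had Xist at 143.6 CPM.

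The 4 genes given as markers of this comparison all passed the test and each separated the 7 libraries without overlap. They were chosen with earlier results of these data known, so their passing is a description and no independent support. Effects are log2 fold changes, day 7 minus day 3, ± SE from edgeR's quasi-likelihood test fitted to all 26 libraries, with p-values adjusted by Benjamini-Hochberg over 17143 genes. Ly6c2, a surface protein of inflammatory monocytes (chr15:75108158-75111970 of GRCm38), was at 339.3, 1189 and 430.4 CPM in the 3 day 3 libraries and at 0.582, 1.36, 0.964 and 1.52 CPM in the 4 day 7 libraries. Replicate 2 was the highest of day 3, and all 4 day 7 libraries lay below the 4.43 to 7.85 CPM of untreated cells. The change was −9.25 ± 0.69 (608-fold lower, edgeR adjusted p = 1.8e-08), and −8.475 without day 3 replicate 2. The day 7 level differed from day 0 by −2.46 (edgeR adjusted p = 0.042), a comparison that also crosses sex and library prefix. Reads of Ly6c2 may be shared with near-identical genes of its family.

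Irf7, the interferon-induced transcription factor (chr7:141262706-141266481), stood at 79.1, 177.2 and 205.9 CPM at day 3 and at 9.63, 8.22, 9.18 and 7.41 CPM at day 7. The lowest day 3 library was still above every day 7 library, and the day 7 values lay among or just above those of untreated cells (4.58 to 9.26 CPM). The change was −4.16 ± 0.34 (17.8-fold lower, edgeR adjusted p = 1.3e-08). Against day 0 Irf7 differed by 4.45 at day 3 (edgeR adjusted p = 1.2e-08) and by 0.29 at day 7, which did not pass. Slc11a1, the metal transporter of phagosomes once known as Nramp1 (chr1:74375195-74386062), was at 146.3, 277.8 and 224.8 CPM at day 3 and at 15.9, 13.04, 5.99 and 11.6 CPM at day 7. Its change was −4.22 ± 0.34 (18.6-fold lower, edgeR adjusted p = 1.3e-08), and untreated cells had 4.48 to 8.73 CPM.

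Abcg1, the transporter that exports cholesterol to lipoproteins (chr17:31057675-31117988), went the other way. It was at 940.2, 745.0 and 1197 CPM at day 3 and at 1974, 2192, 2286 and 2105 CPM at day 7, beside 2044 to 2513 CPM in untreated cells. Day 7 was 2.23-fold higher than day 3 (1.16 ± 0.23, edgeR adjusted p = 0.0051), and day 3 was lower than day 0 (−1.22, edgeR adjusted p = 0.0031). Without day 3 replicate 2 the log2 fold change of Abcg1 was 1.01 and its call was lost. It was 0.85, and again not called, with day 3 replicate 3 as the only day 3 library, the one numbered up to 24 as the day 7 libraries are. In that setting a lone library is assumed to vary like the other groups, which supply the spread, so a lost call there says little.

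**Figure D1:**
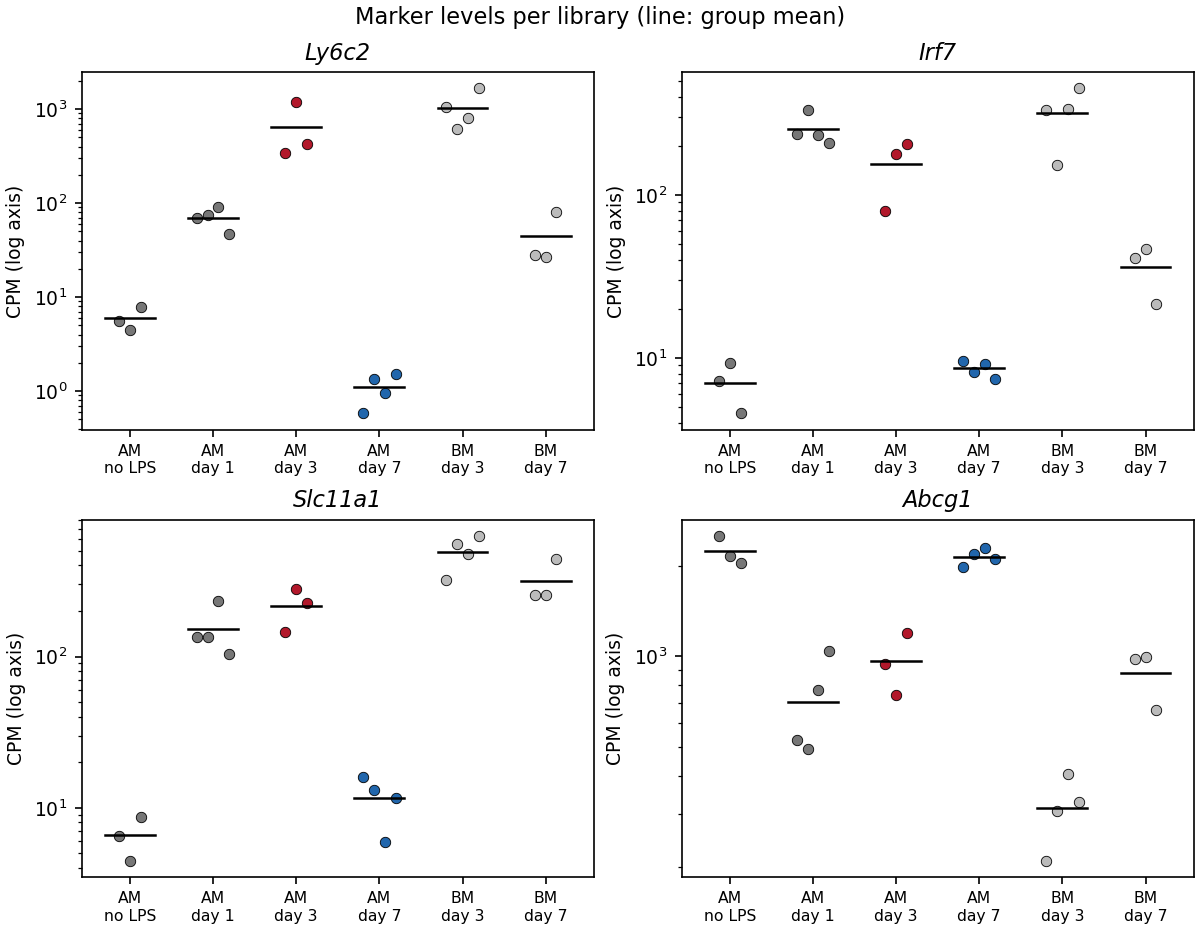
Level of Ly6c2, Irf7, Slc11a1 and Abcg1 in each library, in CPM on a log axis, for resident AM without LPS and at day 1, 3 and 7 and for BM-derived macrophages at day 3 and 7; points are libraries and lines are group means. The day 3 and day 7 resident libraries do not overlap for any of the 4 genes; Irf7 at day 7 spans 7.41 to 9.63 CPM beside 4.58 to 9.26 CPM without LPS.

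Across all genes tested, 272 of 17143 passed the test (1.59%), 40 of them higher at day 7 (0.233%) and 232 lower (1.35%). Counts of called list members given below are to be set beside these shares. The median log2 fold change of all genes tested was 0.006. The split depends on how the spread is estimated: DESeq2 called 248 higher and 391 lower, and edgeR fitted to the 7 libraries alone called 1145 higher and 1101 lower, with 265 of the 272 calls among them. With a covariate for the Y-linked level, whose coefficient rests on libraries within groups that differ in sex and chiefly on BM day 3, 12 genes were higher and 88 lower, and 84 of the 272 were called again. Of the 74 called genes that fall under the naming rule, 49 lost their call with this covariate and 29 without day 3 replicate 2. Of the called genes 2 of 40 higher and 2 of 232 lower lie on the X chromosome, which holds 2.98% of the genes tested, and 2 of the lower ones on the Y chromosome. The 2 higher ones, Kdm5c and Ddx3x, belong to the list of X-linked sex-biased genes. All 5 members of that list tested had every day 7 library above every day 3 library, as in 13.1% of all genes tested.

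The interferon-stimulated genes were the list with the most calls. Of 36 members tested 18 fell and none rose, against 1.35% of all genes called lower, and in 35 of the 36 every day 3 library stood above every day 7 library, as in 10.6% of all genes tested. The median log2 fold change over the list was −2.08. The 18 that fell, by between 1.12 and 4.49 on the log2 scale, were Irf7, Ifit2, Ifit3, Isg15, Rsad2, Mx1, Oasl2, Oas1a, Oas2, Oas3, Usp18, Bst2, Rtp4, Zbp1, Cmpk2, Slfn5, Ly6e and Phf11b. Ifih1, an RNA sensor, was the member whose groups overlapped, and the 18 that did not pass had log2 fold changes between −7.46 and −0.34. The most negative of these was Ifi44, at 2.72 to 4.00 CPM at day 3 and with counts in 1 of the 4 day 7 libraries.

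Oas3, an oligoadenylate synthetase that activates RNase L (chr5:120753098-120777661), was at 38.1, 67.3 and 79.5 CPM at day 3 and at 2.76, 1.99, 1.98 and 5.99 CPM at day 7. Its change of −4.31 ± 0.39 had an adjusted p of 5.1e-08 in edgeR, and untreated cells averaged 3.58 CPM. Ifit3, an antiviral protein with tetratricopeptide repeats (chr19:34583531-34588731), was at 20.1, 46.5 and 30.7 CPM and then at 1.96, 0.778, 1.32 and 1.73 CPM. It fell by 4.49 ± 0.67 on the log2 scale (edgeR adjusted p = 0.00014), with the caution that Ifit3b is a near-identical neighbour.

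Rsad2, the antiviral enzyme viperin (chr12:26442746-26456452), was at 29.9, 67.5 and 46.7 CPM at day 3 and at 2.84, 4.18, 1.17 and 2.03 CPM at day 7 (−4.22 ± 0.63, edgeR adjusted p = 0.00019). Replicate 2 was the highest day 3 library for Ifit3 and Rsad2, and replicate 3 was the highest for Irf7 and Oas3. The most abundant member, Ly6e, moved least among those called: 973.5, 1141 and 954.9 CPM at day 3 against 479.6, 486.8, 426.8 and 483.7 CPM at day 7 (−1.12 ± 0.19, edgeR adjusted p = 0.00063). It lay within a narrow band in each group, and untreated cells averaged 381.6 CPM.

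The promoters of 4 of the named members are shown because these genes fell together and because the response element is the sequence feature that names the list. They were read from RefSeq promoter sequences of GRCm38.p6, 250 bases before to 50 bases after the start, 5′ to 3′ on the gene's strand. Capitals mark matches to GAAANNGAAA, the core of the interferon-stimulated response element, searched on both strands. Ly6e has no entry among them. Irf7 lies at chr7:141266375-141266674 on the minus strand, Ifit3 at chr19:34583279-34583578 on the plus strand, Oas3 at chr5:120777610-120777909 on the minus strand and Rsad2 at chr12:26456403-26456702 on the minus strand.
Irf7: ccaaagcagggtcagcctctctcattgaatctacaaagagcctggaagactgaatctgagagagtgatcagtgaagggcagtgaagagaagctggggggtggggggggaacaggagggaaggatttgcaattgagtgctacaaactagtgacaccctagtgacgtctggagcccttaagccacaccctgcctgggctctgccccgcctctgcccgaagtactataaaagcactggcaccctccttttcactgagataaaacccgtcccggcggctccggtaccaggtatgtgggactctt
Ifit3: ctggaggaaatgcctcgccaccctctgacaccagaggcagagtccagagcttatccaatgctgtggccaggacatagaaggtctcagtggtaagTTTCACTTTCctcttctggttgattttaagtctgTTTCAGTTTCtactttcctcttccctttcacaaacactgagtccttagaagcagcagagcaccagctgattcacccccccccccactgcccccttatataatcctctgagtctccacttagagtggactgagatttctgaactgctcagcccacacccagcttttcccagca
Oas3: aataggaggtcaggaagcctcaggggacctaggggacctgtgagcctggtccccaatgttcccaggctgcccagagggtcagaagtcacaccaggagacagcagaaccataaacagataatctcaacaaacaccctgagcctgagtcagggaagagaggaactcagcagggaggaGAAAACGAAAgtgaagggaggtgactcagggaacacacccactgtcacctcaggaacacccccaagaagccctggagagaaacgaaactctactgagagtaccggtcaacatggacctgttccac
Rsad2: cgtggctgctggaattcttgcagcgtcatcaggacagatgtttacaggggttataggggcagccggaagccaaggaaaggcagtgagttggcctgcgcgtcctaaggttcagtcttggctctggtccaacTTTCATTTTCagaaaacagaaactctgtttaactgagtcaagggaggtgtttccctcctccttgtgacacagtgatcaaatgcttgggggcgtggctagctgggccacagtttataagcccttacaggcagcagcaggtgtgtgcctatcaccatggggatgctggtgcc

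Ifit3 has 2 matches, the nearer one ending 113 bases before the start and the farther one starting 156 bases before it. Rsad2 has 1 that starts 120 bases before the start, and Oas3 has 1 that starts 75 bases before it. Irf7 has no such letters in this window. Among all 32851 promoters in that set, 3.44% hold a match. Counted by gene, a match was found for 15 of the 25 members of the list with an entry (60%) and for 8 of the 12 called members with an entry. The gamma-activated site, TTCNNNGAA, was present in 8.3% of all promoters and in 5 of the 25. These are matches of letters, given as a description.

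Interferon-inducible GTPases, which attack the membranes around intracellular pathogens, followed the same pattern. Of 18 members 7 fell and none rose (Gbp2, Gbp4, Gbp5, Gbp9, Irgm1, Tgtp2 and Ifi47). The list median was −2.18, and 1.35% of all genes were called lower. Gbp2, the most abundant (chr3:142620602-142638008), was at 534.3, 643.5 and 475.6 CPM at day 3 and at 104.1, 127.7, 112.8 and 109.8 CPM at day 7. It fell by 2.28 ± 0.52 on the log2 scale (edgeR adjusted p = 0.022) and remained above the 28.8 CPM mean of untreated cells, a difference of 1.98 that did not pass (edgeR adjusted p = 0.16). The Gbp2 call against day 3 was lost when any one of the 7 libraries was left out.

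Gbp4 was at 19.7, 49.4 and 39.5 CPM against 2.33, 2.58, 2.03 and 4.37 CPM (−3.69 ± 0.56, edgeR adjusted p = 0.00015). Gbp9 changed by −2.61 ± 0.34 (edgeR adjusted p = 1.7e-05) and Tgtp2, whose reads may be shared with Tgtp1, by −3.43 ± 0.75 (edgeR adjusted p = 0.011). Response element letters were found for 10 of the 11 genes of this list with an entry, and gamma-activated site letters for 6 of the 11. Summed over the list, the GTPases were at 1269, 1548 and 1288 CPM at day 3 and at 333.8 to 372.2 CPM at day 7, above the 176.7 to 193.1 CPM of day 0. The interferon-stimulated genes summed to 2676, 3462 and 3210 CPM and then to 1117 to 1215 CPM, beside 920.8 to 1116 CPM at day 0.

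With the Y-linked covariate 10 interferon-stimulated genes and 1 GTPase were called lower. In the fit to the 7 libraries alone the counts were 32 and 14, and without day 3 replicate 2 they were 13 and 5.

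**Figure D2:**
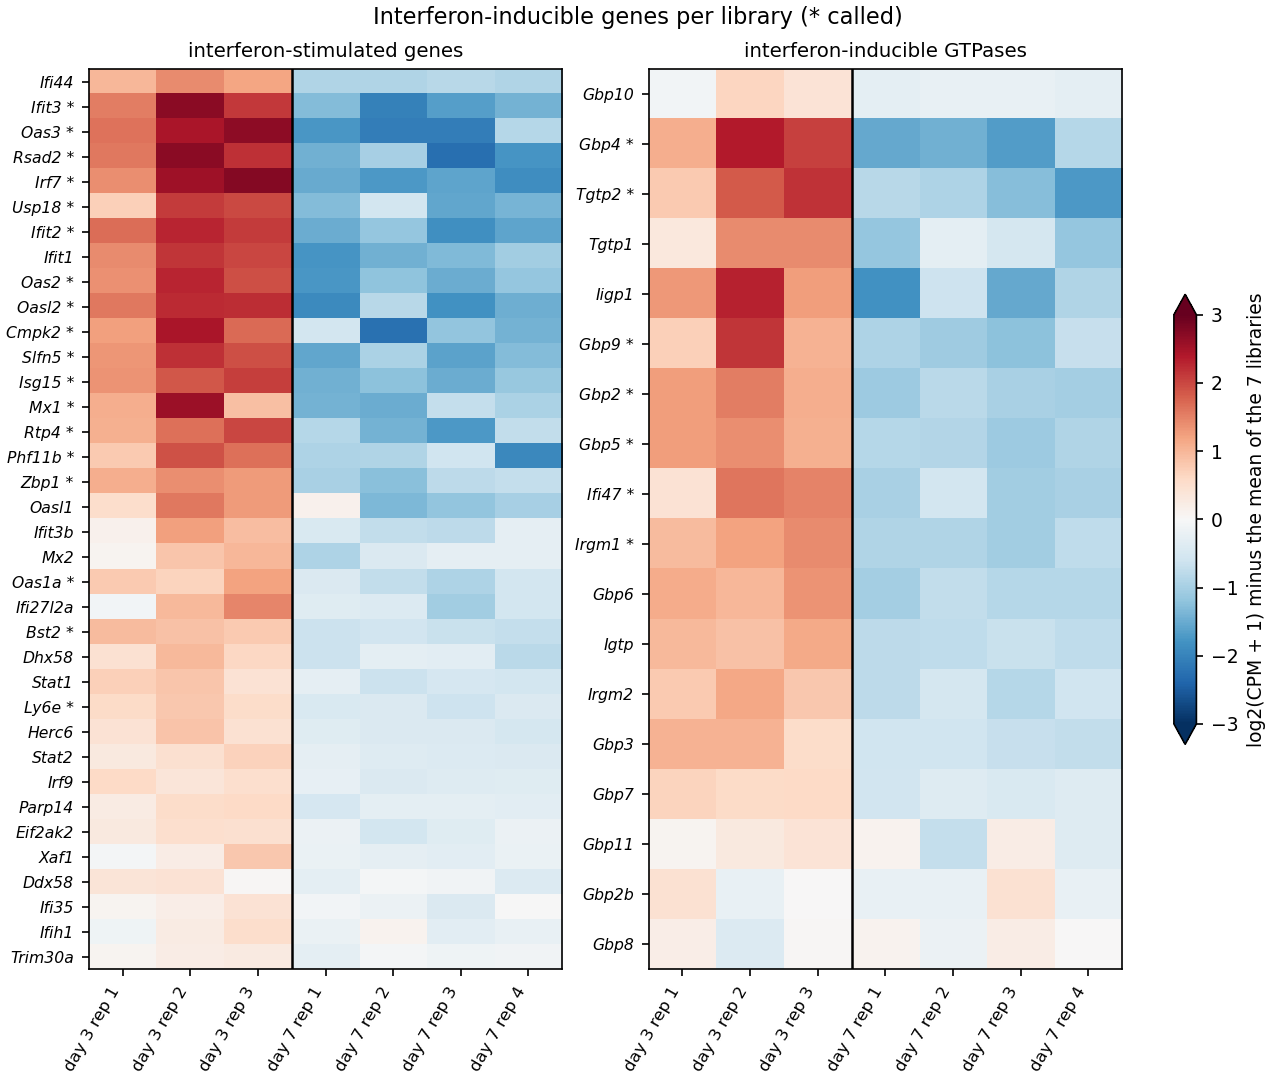
Level of each interferon-stimulated gene (left) and interferon-inducible GTPase (right) in the 7 libraries, as log2(CPM + 1) minus the mean of the 7; rows are ordered by log2 fold change and an asterisk marks the 18 and 7 genes called lower. Day 3 libraries are above day 7 libraries in nearly every row; the groups overlap for Ifih1 and for 3 of the 18 GTPases.

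Genes of antigen presentation by MHC class I, many of them interferon targets, moved less. Of 18 members 4 fell and none rose (H2-K1, H2-T22, B2m and Tap1), the list median was −0.77, and in 17 of the 18 the day 3 libraries stood above the day 7 libraries (10.6% of all genes tested). H2-K1, a classical heavy chain, was at 4245, 4417 and 4271 CPM at day 3 and at 2458, 2928, 2649 and 2653 CPM at day 7 (−0.69 ± 0.16, edgeR adjusted p = 0.014). B2m, the light chain, was at 4302, 4305 and 4164 CPM against 2263, 2846, 2551 and 2648 CPM (−0.72 ± 0.18, edgeR adjusted p = 0.036), a call lost without any one of the 7 libraries.

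Both chains were still above untreated cells at day 7, H2-K1 by 1.07 (edgeR adjusted p = 0.00035) and B2m by 1.07 (edgeR adjusted p = 0.0026), in a contrast that also crosses sex and library prefix. Tap1, the peptide transporter, fell by 1.43 ± 0.32 on the log2 scale (edgeR adjusted p = 0.014). The Tap1 call was lost without day 3 replicate 2 or 3, and without day 7 replicate 2 or 3. That of H2-K1 was lost without day 3 replicate 2 or 3, and without day 7 replicate 1, 3 or 4. No member of the MHC class I list was called with the Y-linked covariate, and 17 of 18 were in the fit to the 7 libraries alone. Of 13 genes of MHC class II and costimulation none passed edgeR's test. Cd74, the invariant chain, had 1079, 1470 and 2775 CPM at day 3 and 1975, 1320, 1349 and 1477 CPM at day 7, so that the groups overlapped.

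Many genes of blood monocytes and of monocyte-derived macrophages fell between day 3 and day 7. Of 18 blood monocyte genes 8 fell (among them Ly6c2, Itgam, Plac8, F13a1, Vcan, Hp and Ms4a4c) and 1, Nr4a1, rose. Over all genes tested 1.35% were called lower and 0.233% higher. F13a1, the A chain of coagulation factor XIII (chr13:36867178-37050244), was at 85.8, 526.5 and 160.1 CPM at day 3 and at 4.00, 5.74, 1.27 and 1.32 CPM at day 7 (−6.35 ± 0.83, edgeR adjusted p = 5.8e-05). Ms4a4c (−4.87 ± 0.73, edgeR adjusted p = 0.00018) and Plac8 (−4.83 ± 0.65, edgeR adjusted p = 6.7e-05) had 0.473 to 2.29 CPM at day 7. Other members did not fall. Ace (1.59), Treml4 (1.595), Itgal (0.67) and Spn (0.66), chosen after their values were seen, did not pass the test. They had every day 7 library above every day 3 library, as Nr4a1 did and as 13.1% of all genes tested did. Ace, Treml4, Spn and Nr4a1 are known from non-classical monocytes. Cx3cr1 of the same list went the other way and did not pass (−1.79 ± 0.76, edgeR adjusted p = 0.52). It was at 21.06, 79.11 and 26.26 CPM at day 3 and at 5.73 to 16.75 CPM at day 7, without overlap. The chemokine receptor Ccr2 was at 18.4 to 57.5 CPM at day 3 and 25.98 to 62.4 CPM at day 7, and Fn1, the most abundant, at 2923 to 3493 against 2426 to 3101 CPM.

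Of 20 genes of monocyte-derived and tissue macrophages 8 fell (among them C1qa, C1qb, C1qc, Apoe, Maf, Gpnmb and Arg1) and none was called higher. The list median was −2.11, and 1.35% of all genes were called lower. Spp1 (1.18, every day 7 library above every day 3 library) and Mmp12 (0.31, groups overlapping) went the other way. Neither passed the test, and the other 18 members had negative log2 fold changes. C1qb, a chain of the first complement component (chr4:136880129-136886187), was at 174.5, 568.3 and 151.9 CPM at day 3 and at 62.4, 22.5, 10.8 and 20.9 CPM at day 7 (−3.35 ± 0.50, edgeR adjusted p = 0.00022). It still exceeded the 4.97 CPM mean of untreated cells at day 7, by 2.56 (edgeR adjusted p = 0.016). Apoe, a lipid carrier, was at 1527, 6035 and 949.0 CPM and then at 690.3, 573.7, 359.9 and 473.8 CPM (−2.44 ± 0.52, edgeR adjusted p = 0.014), and its log2 fold change was −1.23, and not called, without day 3 replicate 2. The Apoe call was also lost without day 7 replicate 3 or 4.

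Maf, a transcription factor of tissue macrophages, changed by −3.94 ± 0.46 (edgeR adjusted p = 3.1e-06), and Arg1, which hydrolyses arginine, by −5.74 ± 1.11 (edgeR adjusted p = 0.0053). Arg1 spread widely at day 7, at 21.2, 0.292, 0.609 and 4.77 CPM, below the 132.6 to 648.6 CPM of day 3. Stab1, a scavenger receptor for modified lipoproteins and apoptotic cells, was at 125.0, 524.5 and 165.1 CPM against 20.1, 21.5, 4.82 and 8.73 CPM (−4.29 ± 0.52, edgeR adjusted p = 1.4e-05).

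The day 3 libraries were unequal in these genes. Summed over the 20 genes they held 6154, 12870 and 5324 CPM, the highest in replicate 2, against 2457 to 3710 CPM at day 7, 1263 to 1548 CPM without LPS and 16050 to 34270 CPM in BM-derived cells at day 3. In bulk RNA, fewer cells of a type and less RNA per cell cannot be told apart, and the part that recruited cells within the sorted population had in these values was not tested. Without day 3 replicate 2, 7 blood monocyte genes and 6 monocyte-derived genes were called lower, and with the Y-linked covariate 7 and 3. The fit to the 7 libraries alone called 8 and 9, and Apoe, Arg1, C1qb and C1qc were not among them.

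**Figure D3:**
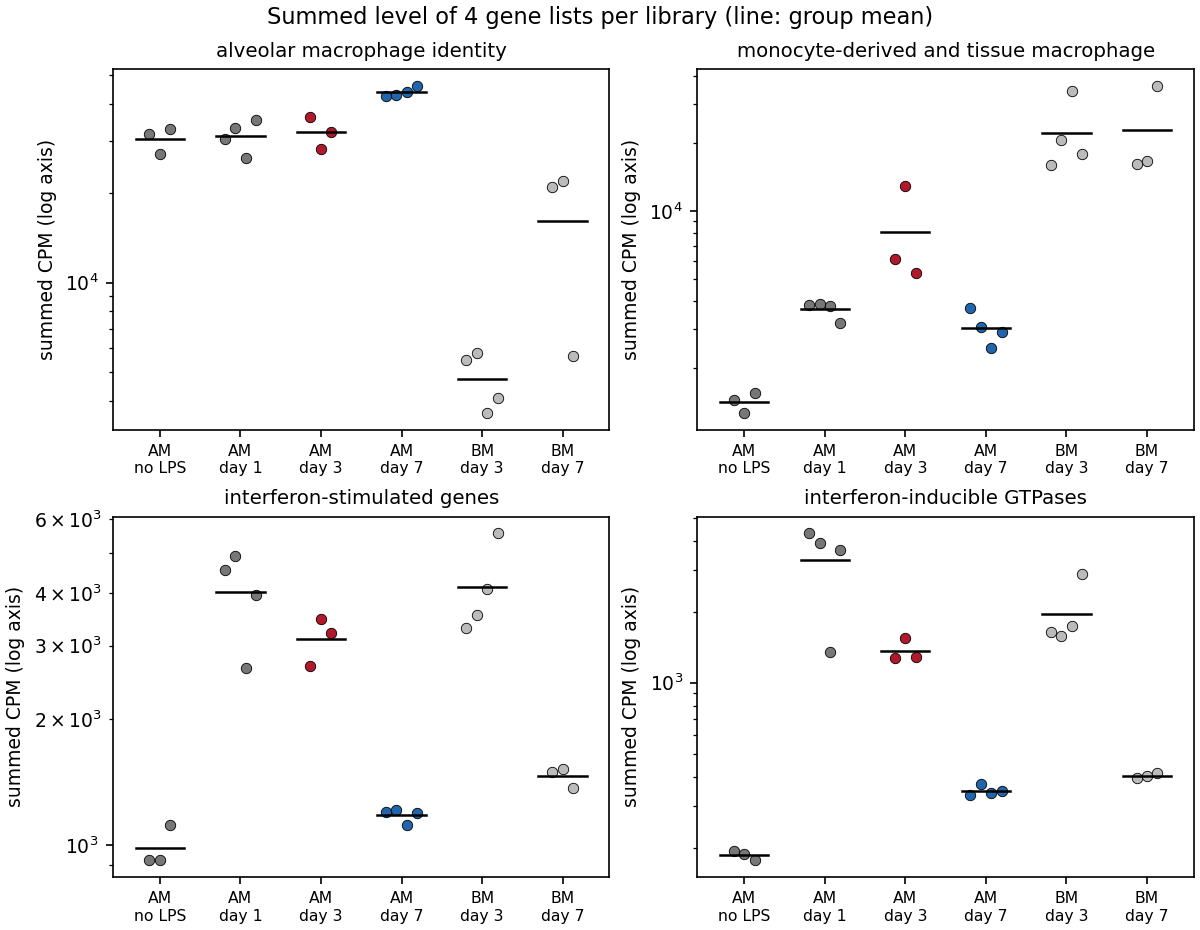
Summed CPM, on a log axis, of the alveolar macrophage identity, monocyte-derived and tissue macrophage, interferon-stimulated and GTPase lists in each library of resident AM and of BM-derived macrophages; points are libraries and lines are group means. The identity list is at 42430 to 45970 CPM at day 7 against 28090 to 36160 CPM at day 3, and day 3 replicate 2 is the highest resident library for the monocyte-derived list.

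Saa3 and Nos2 were among the 12 largest falls that the naming rule picks. Saa3, an acute phase protein made by macrophages (chr7:46711998-46715700), was at 1584, 6074 and 2516 CPM at day 3 and at 8.03, 4.67, 2.89 and 5.18 CPM at day 7, a change of −9.34 ± 1.03 (edgeR adjusted p = 5.7e-06). Nos2, the inducible nitric oxide synthase (chr11:78920787-78960254), was at 36.9, 181.0 and 248.0 CPM and then at 0.710 to 1.27 CPM (−7.44 ± 1.04, edgeR adjusted p = 0.00014). Lcn2, which sequesters bacterial siderophores (chr2:32384633-32388252), was at 381.7, 551.6 and 971.0 CPM against 16.5, 22.96, 10.3 and 16.3 CPM (−5.26 ± 0.72, edgeR adjusted p = 0.00011). The 3 day 3 libraries differed by several fold in each of these genes and in a different order, replicate 2 being highest for Saa3 and replicate 3 for Nos2 and Lcn2.

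Lcn2 had not come back to the untreated mean of 0.622 CPM at day 7 (4.71 above it, edgeR adjusted p = 0.0032), whereas the day 7 minus day 0 differences of Saa3 (1.63) and Nos2 (2.61) did not pass. Ccl5, a chemokine for T cells and monocytes, was at 110.6, 424.4 and 184.6 CPM at day 3 and at 3.13, 1.12, 3.50 and 4.77 CPM at day 7 (−6.28 ± 0.71, edgeR adjusted p = 5.7e-06). The day 7 level of Ccl5 lay below the 38.2 CPM mean of untreated cells (−3.63, edgeR adjusted p = 0.0044). Il12a, a subunit of interleukin 12, had 66 to 82 counts in each day 3 library and none at day 7, and was at least 156-fold lower when 3 counts over the day 7 group are taken as the floor.

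Of 30 genes in the cytokine and chemokine list, which does not hold Il12a, only Ccl5 and Saa3 passed edgeR's test, and the list median was −0.08. Its most abundant member, Ccl6, was at 2419, 1646 and 3791 CPM against 3699 to 3912 CPM (0.53 ± 0.27, edgeR adjusted p = 0.67). Of 27 genes of TLR and NF-kB signalling 3 fell: Tlr1, a receptor for bacterial lipopeptides (−4.73 ± 0.54, edgeR adjusted p = 2.3e-06), Socs3, an inhibitor of STAT3 signalling (−1.63 ± 0.25, edgeR adjusted p = 0.00016), and Traf1, an adaptor of TNF receptors (−1.62 ± 0.35, edgeR adjusted p = 0.0084). Tlr1 was at 9.87, 34.3 and 12.4 CPM at day 3 and at 0.355 to 1.09 CPM at day 7, while its partner Tlr2 was at 1099 to 1201 against 1594 to 2055 CPM and did not pass (edgeR adjusted p = 0.61).

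In the complement and Fc receptor list C3ar1, the receptor for C3a, was at 105.8, 341.1 and 91.3 CPM at day 3 and at 14.0, 7.98, 3.70 and 4.06 CPM at day 7 (−4.58 ± 0.67, edgeR adjusted p = 0.00021). C5ar1, the receptor for C5a, rose, from 96.3, 169.4 and 151.3 to 277.8, 319.0, 379.1 and 333.6 CPM (1.24 ± 0.27, edgeR adjusted p = 0.011). Both receptors separated the groups, in opposite directions. Fcgr2b, the inhibitory Fc receptor (−1.20 ± 0.21, edgeR adjusted p = 0.00088), and Cfb, complement factor B (−2.03 ± 0.50, edgeR adjusted p = 0.031), fell, the call of Cfb being lost without any one of the 7 libraries. Sod2, the mitochondrial superoxide dismutase (−1.38 ± 0.25, edgeR adjusted p = 0.0018), and Slc7a11, the cystine importer (−1.77 ± 0.39, edgeR adjusted p = 0.014), fell with Nos2 in the reactive oxygen list, whereas Cybb, the NADPH oxidase subunit, was at 2881 to 4540 against 3438 to 4485 CPM and overlapped.

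Genes of glycolysis fell as a group in number of calls, beside 1.35% of all genes called lower. Of 19 glycolysis and hypoxia genes tested 10 fell and none rose: Slc2a1, Hk3, Gpi1, Pfkl, Tpi1, Pgk1, Eno1, Pkm, Ldha and Slc16a3, which run from glucose uptake to lactate export. Their log2 fold changes lay between −1.81 and −0.67, and the list median was −1.08. Pkm, pyruvate kinase, was at 1537, 2621 and 1870 CPM at day 3 and at 1061, 933.2, 849.5 and 888.8 CPM at day 7 (−1.11 ± 0.21, edgeR adjusted p = 0.0022). Pfkl, a phosphofructokinase, was at 271.2, 385.1 and 189.3 CPM against 90.3, 87.0, 69.6 and 74.6 CPM (−1.81 ± 0.37, edgeR adjusted p = 0.0064).

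Slc2a1, the glucose transporter GLUT1, was at 163.9, 164.0 and 138.1 CPM and then at 60.8, 61.8, 53.5 and 62.7 CPM (−1.38 ± 0.28, edgeR adjusted p = 0.0048). Pfkp, another phosphofructokinase, was at 228.5 to 263.7 against 280.4 to 324.9 CPM and did not pass, and Gapdh, at 21.3 to 34.7 CPM in all 7 libraries, has many near-identical copies in the genome and its count is uncertain. The summed level was 6577, 9471 and 6751 CPM at day 3, 3664 to 4141 CPM at day 7 and 3168 to 3635 CPM without LPS, again highest in day 3 replicate 2. Without that library 3 of the glycolysis genes were called, with the Y-linked covariate none (0 of 19), and in the fit to the 7 libraries alone 14.

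Oxidative phosphorylation showed no call among its 27 genes in edgeR, with a median of −0.18 and log2 fold changes between −0.52 and 0.25. In 9 of the 27 every day 3 library stood above every day 7 library (10.6% of all genes tested). The reverse held in 1. Atp5b, a subunit of ATP synthase, was at 828.7, 847.5 and 898.4 CPM against 790.1, 827.0, 813.2 and 775.4 CPM. None of 19 genes of mitochondrial fatty acid oxidation and none of 30 peroxisome genes passed edgeR's test, with medians of 0.30 and 0.20. In 10 of the 19 and 12 of the 30, however, every day 7 library stood above every day 3 library (13.1% of all genes tested). The reverse held in 2 and 3. The lists summed to 1499 to 1871 and 1944 to 2291 CPM at day 3, and to 1945 to 2113 and 2615 to 2998 CPM at day 7. Cpt1a, the entry enzyme of fatty acid oxidation, was at 190.6 to 299.7 CPM at day 3 and 320.5 to 360.9 CPM at day 7 (0.54 ± 0.30).

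**Figure D4:**
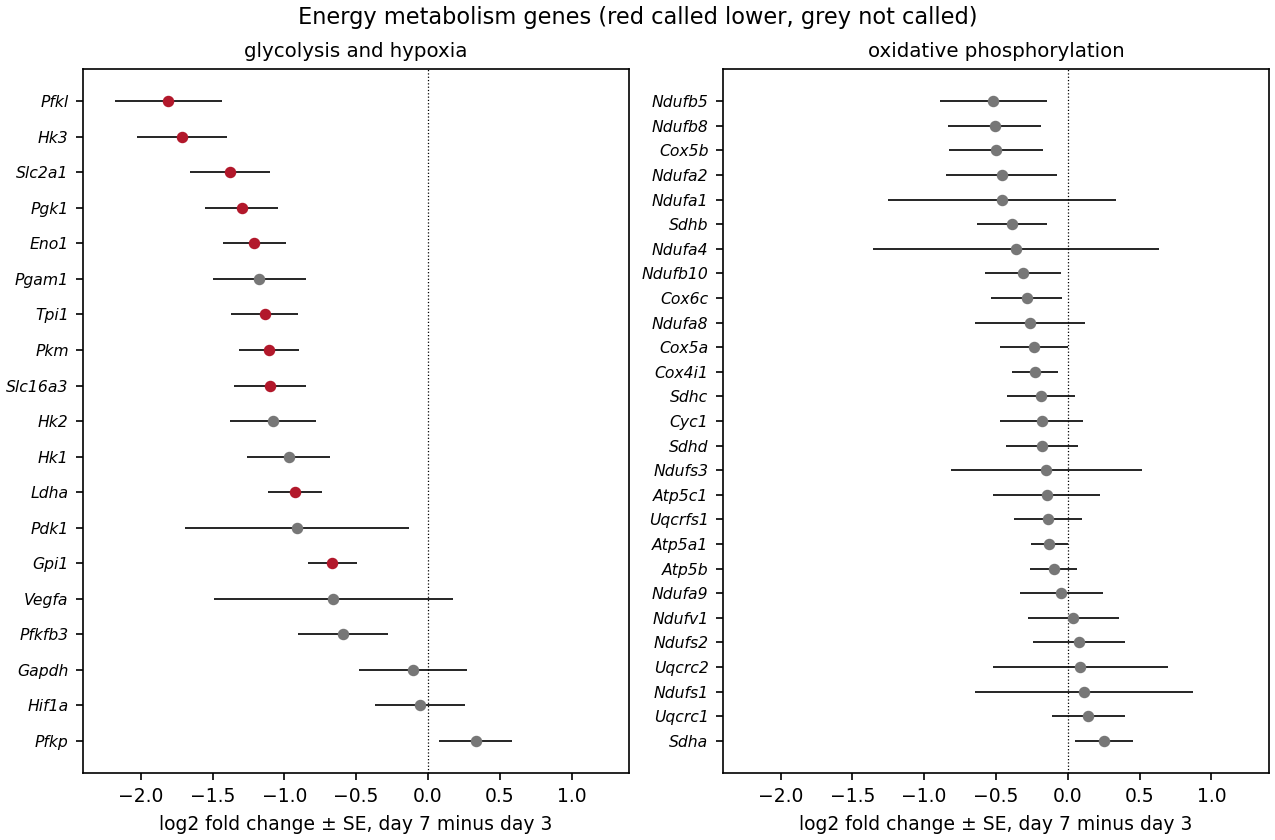
Log2 fold change (day 7 minus day 3, points) with its SE (bars) for the 19 genes of glycolysis and hypoxia and the 27 genes of oxidative phosphorylation that were tested; red marks genes called lower. The 10 called glycolysis genes lie between −1.81 and −0.67, and the oxidative phosphorylation genes between −0.52 and 0.25.

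Lipid genes did not move one way. In the cholesterol efflux list Abcg1 rose while Abca1, the transporter that loads apolipoprotein A-I (198.3, 465.5 and 246.4 CPM against 117.6, 144.7, 129.4 and 129.8 CPM, −1.22 ± 0.31, edgeR adjusted p = 0.041), and Apoe fell, all 3 of them known targets of the oxysterol receptor LXR. The Abca1 call was lost in 6 of the 7 fits that leave out 1 library, all but that without day 3 replicate 1, and was kept under 9 of 20 alternatives. Among genes of lipid uptake and storage Msr1, a scavenger receptor (−1.73 ± 0.30, edgeR adjusted p = 0.00083), and Acsl1, which activates fatty acids (−1.79 ± 0.46, edgeR adjusted p = 0.045), fell, and the Acsl1 call was lost without any one of the 7 libraries. Lpl, which frees fatty acids from lipoproteins, was at 4246, 2857 and 3551 against 5760 to 7076 CPM and did not pass (0.86 ± 0.30, edgeR adjusted p = 0.26). None of 27 genes of sterol and fatty acid synthesis passed edgeR's test.

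In the iron list Fth1, the heavy chain of ferritin, fell with Slc11a1. It was at 16580, 17830 and 17470 CPM at day 3 and at 8749, 8228, 7856 and 8160 CPM at day 7 (−1.07 ± 0.23, edgeR adjusted p = 0.0080), beside a mean of 8376 CPM in untreated cells. Ctsb was the only one of 30 lysosome genes to pass edgeR's test, at 2655, 3381 and 2611 CPM against 1641, 1633, 1530 and 1510 CPM (−0.87 ± 0.21, edgeR adjusted p = 0.028). The Ctsb call was kept under 9 of 20 alternatives, and lost without day 3 replicate 1 or 2 or any one day 7 library. Ctss, the most abundant, was at 4156 to 5030 against 4053 to 4469 CPM. Of the 30 log2 fold changes 25 were negative. In 14 every day 3 library stood above every day 7 library (10.6% of all genes tested), and in 2 the reverse held. The list summed to 26720 to 28560 CPM at day 3 and to 22440 to 23560 CPM at day 7.

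The label of the cells was checked on the alveolar macrophage list, which was abundant in all 7 libraries. Siglecf, Pparg and Chil3, textbook markers of these cells of which only Chil3 falls under the naming rule, were at 128.7 to 242.5, 112.9 to 157.3 and 16140 to 19710 CPM at day 3 and at 441.1 to 561.4, 241.2 to 285.7 and 19040 to 23430 CPM at day 7. Of the 20 genes 1, Abcg1, passed the test, and the list median was 0.84. In 14 of the 20 all day 7 libraries stood above all day 3 libraries, against 13.1% of all genes tested. The log2 fold changes of 5 members were negative, none of them called: Fabp5 (−0.79, all day 3 libraries above), Marco (−0.78), Ctsk (−0.72), Bhlhe41 (−0.36) and Car4 (−0.07). In the fits to the AM groups alone and to the 7 libraries alone 10 and 12 of the 20 were called higher. Summed, the list was at 36160, 28090 and 32040 CPM at day 3, lowest in replicate 2, and at 42430 to 45970 CPM at day 7. Chil3 alone made up 50.4 to 59.8% of the sum at day 3 and 44.5 to 51.0% at day 7.

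Among markers of other cells the neutrophil list differed between the groups. Of its 12 genes tested Lcn2 and Csf3r fell, against 1.35% of all genes called lower. In 11 the log2 fold change was negative, and the median was −1.77. In 7 every day 3 library stood above every day 7 library, as in 10.6% of all genes tested. The list summed to 596 to 1179 CPM at day 3, most of it Lcn2, and to 86.6 to 125.9 CPM at day 7. Csf3r was at 59.9, 166.4 and 56.8 CPM at day 3 and at 31.4 to 36.75 CPM at day 7 (−1.48 ± 0.34, edgeR adjusted p = 0.016). Without day 3 replicate 2 its log2 fold change was −0.78 and its call was lost. The Csf3r call was kept under 11 of 20 alternatives. S100a8 and S100a9 fall outside the naming rule and were chosen after their values were seen. S100a8, a calcium-binding protein abundant in neutrophils, was at 97.5, 112.1 and 76.5 CPM against 20.1, 23.5, 19.3 and 28.6 CPM and did not pass (−2.06 ± 0.64, edgeR adjusted p = 0.16). S100a9, its partner, was at 29.0, 75.8 and 10.8 CPM against 1.75 to 6.47 CPM (−3.47 ± 1.27, edgeR adjusted p = 0.36). Ly6g, Elane and Mpo, also in the list, had no count in any of the 7 libraries. The part of neutrophil RNA in these values was not tested. None of the T and NK cell, B cell, dendritic cell, lung epithelium or endothelium and fibroblast markers passed edgeR's test. Endothelium and fibroblast markers summed to 557.2 CPM in day 7 replicate 2 and to 82.8 to 109.9 CPM in the other day 7 libraries.

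Rises were fewer and smaller than falls among the genes called. Plekha6, which encodes a pleckstrin homology domain protein (chr1:133164210-133303435), had the largest: 2.33, 2.24 and 9.53 CPM at day 3 against 201.6, 186.7, 190.2 and 197.1 CPM at day 7 (5.37 ± 1.23, edgeR adjusted p = 0.019). The 4 day 7 libraries lay close together, and no library of untreated, day 1 or BM-derived cells at day 3 or 7 exceeded 27.7 CPM. The Plekha6 call was lost with the Y-linked covariate, with day 3 replicate 3 as the lone day 3 library, without the filter on low counts, and without day 3 replicate 1 or 2. Acap1, an ARF6 GTPase-activating protein, rose from 4.27, 6.38 and 7.38 CPM to 64.8, 49.0, 48.6 and 63.0 CPM (3.23 ± 0.54, edgeR adjusted p = 0.00056), beside 52.8 to 66.1 CPM in untreated cells. Fcgrt, the neonatal Fc receptor that recycles IgG and albumin, rose from 130.4, 168.1 and 188.0 CPM to 764.5, 809.9, 935.7 and 846.2 CPM (2.37 ± 0.57, edgeR adjusted p = 0.031). The Fcgrt call was lost when any one of the 7 libraries was left out. With the Y-linked covariate the calls of Plekha6, Acap1, Fcgrt, C5ar1, Nr4a1, Dusp5, Fosl2, Zfp36, Btg2, Xbp1 and Plaur were lost, and that of Abcg1 was kept. The log2 fold changes stayed positive with it, at 4.22 for Plekha6, 2.49 for Acap1, 2.55 for Fcgrt, 1.68 for Dusp5, 1.17 for Nr4a1 and 0.76 for Fosl2.

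Several transcripts of the immediate early and stress response rose. Of 24 members 4 rose (Fosl2, Btg2, Zfp36 and Dusp1) and 1, Ier3, fell, the list median was 0.81, and in 17 of the 24 all day 7 libraries stood above all day 3 libraries (13.1% of all genes tested). Fosl2, an AP-1 subunit, was at 378.0, 318.6 and 328.8 CPM at day 3 and at 699.0, 782.7, 818.1 and 797.8 CPM at day 7 (1.18 ± 0.24, edgeR adjusted p = 0.0060). Zfp36, which destabilises cytokine mRNA, was at 501.6, 505.7 and 638.7 CPM against 1049, 1068, 1132 and 1072 CPM (0.98 ± 0.22, edgeR adjusted p = 0.015).

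Nr4a1, an orphan nuclear receptor that is also an immediate early gene, rose from 407.4, 277.3 and 329.0 CPM to 790.0, 839.9, 1003 and 820.9 CPM (1.35 ± 0.23, edgeR adjusted p = 0.00056), and Dusp5, a phosphatase that inactivates ERK, rose from 73.7 to 78.1 CPM to 212.7 to 296.4 CPM (1.66 ± 0.30, edgeR adjusted p = 0.0012). Without day 3 replicate 2, and with the Y-linked covariate, no member of the immediate early list was called higher (0 of 24). Nr4a1 and Dusp5 are not in that list. Both kept their calls without day 3 replicate 2 (edgeR adjusted p = 0.013 and 0.011) and lost them with the covariate. Xbp1, a regulator of the unfolded protein response (0.74 ± 0.18, edgeR adjusted p = 0.022), and Plaur, the urokinase receptor (0.77 ± 0.18, edgeR adjusted p = 0.017), rose by less than 2-fold and were the only calls of their lists. The Xbp1 call was kept under 10 of 20 alternatives and lost without any one library other than day 7 replicate 1. That of Plaur was kept under 13 of 20, and lost without day 3 replicate 2 or 3 or day 7 replicate 2, 3 or 4. None of 32 cell cycle genes passed edgeR's test, with a median of −0.46.

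**Figure D5:**
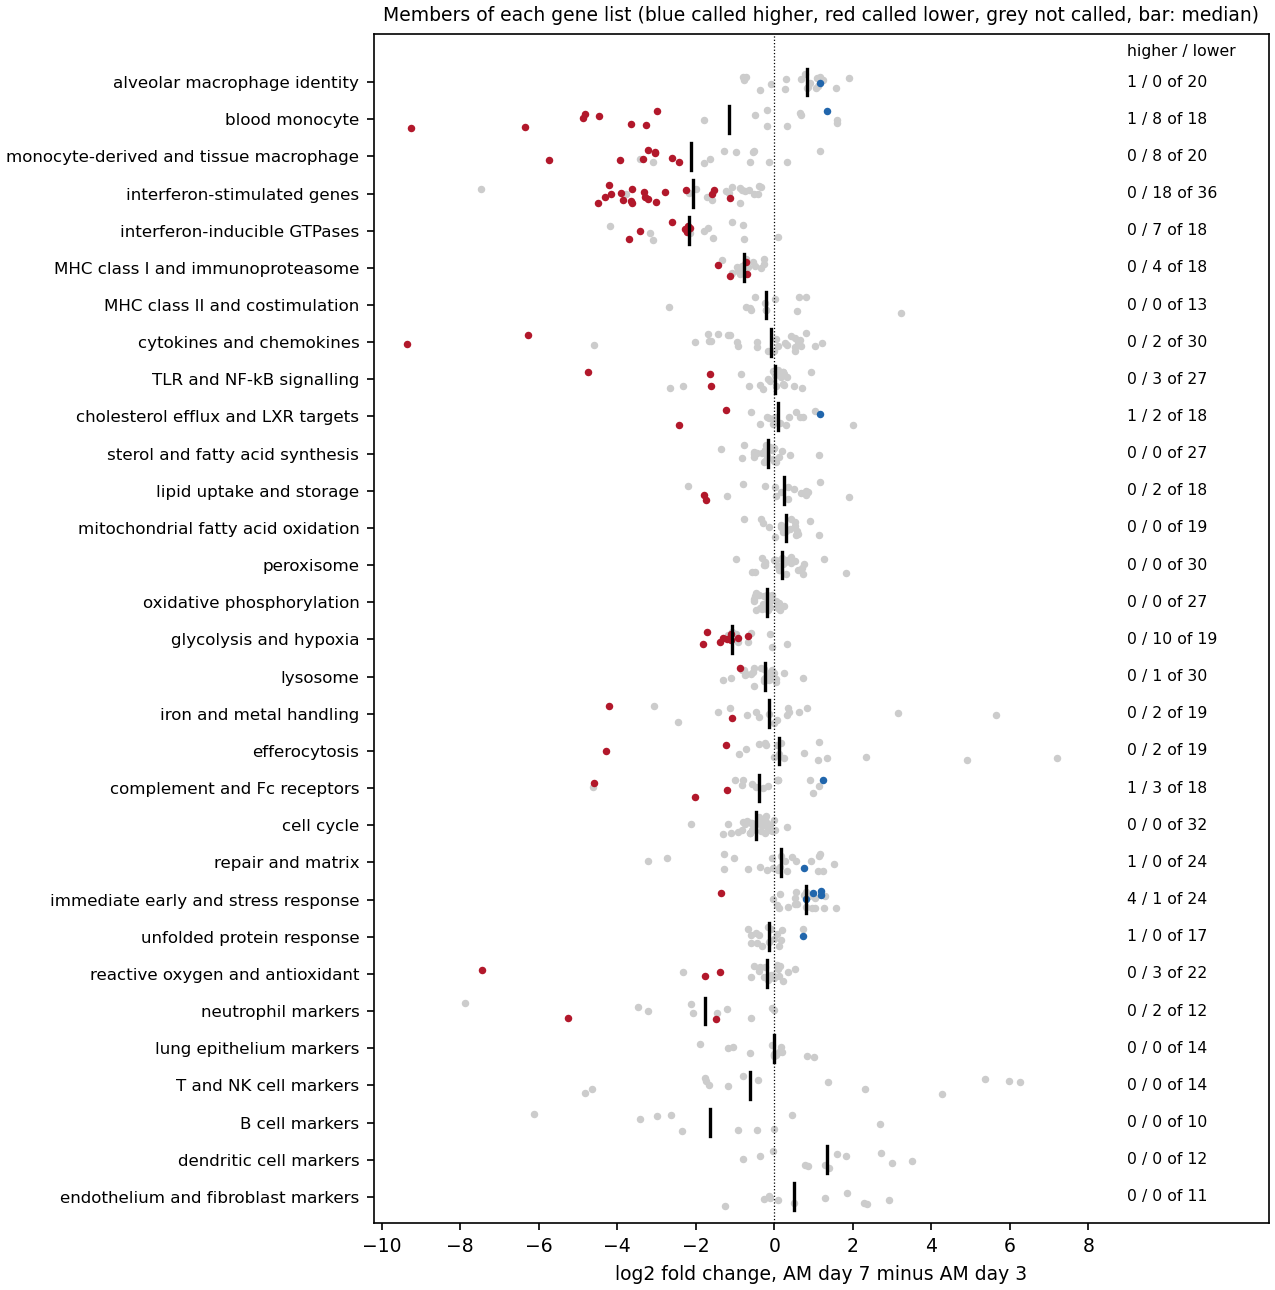
Log2 fold change, day 7 minus day 3, of every tested member of 31 gene lists; blue points were called higher, red points lower, grey points not called, black bars are list medians, and the counts at the right give called higher and lower of the members tested. The interferon lists have medians of −2.08 and −2.18 and no gene called higher, while the immediate early list has 4 called higher and a median of 0.81.

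Whether the day 3 to day 7 change differed from that of the BM-derived cells was tested as an interaction in the same fit. It passed for 62 genes (0.362% of those tested). The markers were chosen with earlier results of these data known, and their resident change is part of this interaction. A difference is therefore favoured in advance for them. Ly6c2 fell in both cell types but by more in the resident cells (−9.25 against −4.52, a difference of −4.73 ± 0.76, edgeR adjusted p = 0.0040), and BM-derived cells still had 26.7 to 80.5 CPM at day 7. Slc11a1 changed by −4.22 in resident cells and by −0.64 in BM-derived cells, where it stayed at 255.2 to 439.6 CPM (difference −3.57 ± 0.44, edgeR adjusted p = 0.00012). The interaction of Irf7 did not pass (−1.04 ± 0.45, edgeR adjusted p = 0.34), nor did that of Abcg1 (−0.34, edgeR adjusted p = 0.96), so no difference between the cell types was shown for them. BM day 3 holds libraries of both sexes as read from RNA, and the interaction is therefore also crossed with sex in part.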

How the data were processed

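RNA of 26 mouse libraries was measured by RNA-seq of poly(A)-selected RNA from stranded libraries, per the labels' protocols. The authors deposited raw counts per Ensembl gene. Per the submitters' processing notes, reads were handled with HISAT2 2.1.0 on GRCm38, featureCounts 2.0.0, Trimmomatic 0.39 and FastQC 0.11.9, in an order that is not given. The annotation, the strand setting and the handling of reads that map to several places are not given in the sources used here, so antisense and near-identical genes are uncertain. Symbols and positions came from GENCODE M21 (GRCm38), which matched 55227 of 55487 IDs.

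Genes were filtered with edgeR's filterByExpr at a minimum count of 10, which left 17143. They were scaled by TMM and fitted with a coefficient for each of 7 groups (edgeR 4.0.16, R 4.3.3, quasi-likelihood F test, robust). Genes with an adjusted p under 0.05 are called. CPM use TMM-scaled library sizes. Total counts were 9950513 to 27513205 in the 7 libraries compared.

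The genes named are the 4 given markers, for each of 35 lists its most abundant member and at most 4 called genes ranked by size of change, and the 12 largest rises and falls. To be named, a called gene had to average 5 CPM at one of the days and to separate the 3 from the 4 libraries. The comparison, its markers and the lists were chosen with earlier results of these data known. Members of a list are not independent replicates. Aldoa and Ddit3 share a symbol with another gene and were left out, and some list members are not reported here by name.

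Alternatives were DESeq2 1.42.0 and its size factors, library size alone, 2 other filters, fits to fewer groups, a term for library number range, the Y-linked level as a covariate, replicate numbers as a block, and leaving out each of the 7 libraries. The fit was also run on simulated data, and the outcome is not reported here. After removing group means, same-numbered day 3 and day 7 libraries had correlations of −0.0139 to 0.028. Those with different numbers had −0.0445 to 0.0321, so no pairing by number was shown.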

Additional observations from a re-analysis of the deposited data

Results flagged for a closer look

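In the day 7 group 131 sets of values were tested for a single library far from the other 3, and 7 stood out, where chance gives about 1 in 20. Dusp5 was at 296.4 CPM in replicate 3 against 212.7 to 224.1 CPM in the others. Ly6e was at 426.8 CPM in replicate 3 against 479.6 to 486.8 CPM, and Nos2 was at 1.27 CPM in replicate 1 against 0.710 to 0.778 CPM. In replicate 2 the endothelium and fibroblast markers summed to 557.2 CPM against 82.8 to 109.9 CPM, the 4 Y-linked genes to 4.09 CPM against 0.152 to 0.7995 CPM, and Ddx3y was at 1.70 CPM against 0.152 to 0.218 CPM. Eosinophil markers summed to 0.254 CPM in replicate 3 and to 0 in the others.

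The change from day 3 to day 7 differed between resident and BM-derived cells for 11 of the genes named, by edgeR's interaction test. Over all genes tested 0.362% passed it. Many of the genes were named for their change in resident cells, which is part of the interaction, so a difference is favoured in advance. The differences are resident minus BM-derived, on the log2 scale. Ly6c2 (−4.73 ± 0.76), Saa3 (−5.64 ± 1.12), F13a1 (−4.71 ± 1.00), C3ar1 (−3.99 ± 0.87), Slc11a1 (−3.57 ± 0.44), Tlr1 (−3.17 ± 0.69) and Maf (−2.78 ± 0.60) fell further in resident cells than the estimate for BM-derived cells. Socs3 differed by −1.54 ± 0.35 and Ier3 by −1.94 ± 0.40, with estimates of −0.09 and 0.59 in BM-derived cells. Ccl6, which encodes a chemokine, differed by −2.58 ± 0.38 (0.53 in resident and 3.11 in BM-derived cells). Acap1 differed by 3.37 ± 0.71 (3.23 and −0.14). The adjusted p-values lay between 0.00012 and 0.048.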

How the results depend on the processing

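In the main fit 40 genes were higher and 232 lower. DESeq2 called 248 and 391, the fit to the AM groups 297 and 461, and the fit to the 7 libraries alone 1145 and 1101. With a Y-linked covariate the counts were 12 and 88, with a term for library number range 12 higher and 161 lower, and with day 3 replicate 3 alone against day 7 they were 1 and 84, where a lone library is assumed to vary like the other groups. Leaving out 1 library at a time gave 9 to 28 higher and 126 to 204 lower, the lowest both times without day 3 replicate 2. The replicate block gave 26 higher and 212 lower with the numbers of the descriptions and 25 and 189 with those of the titles. No pairing of the samples by these numbers was shown (r −0.0139 to 0.028). Without 2 BM-derived libraries that stand apart, day 1 replicate 3 and day 3 replicate 1, the counts were 113 and 357. The cause of these shifts was not tested.

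The interaction called 62 genes, 40 with DESeq2 size factors, 600 with DESeq2, 18 with the Y-linked covariate, 23 with the range term, 36 without the filter, 21 with the title replicate block and 104 without those 2 libraries. Under the Y-linked covariate Eif2s3y and Ddx3y, themselves Y-linked, reversed to 1.58 and 1.19 on the log2 scale. Of 74 named genes called, 21 were called under all 20 alternatives, among them Ly6c2, Irf7, Slc11a1, Oas3, Ifit3, Rsad2, Saa3 and Nos2. The Y-linked covariate ended 49 calls, and leaving out day 3 replicate 2 ended 29. Depth limits genes near 1 CPM, such as Ly6c2 and Nos2 at day 7.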
